A study of Rattus norvegicus with 7 samples.

Results

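The mir-106b-25 and mir-106a-363 clusters are both relatives of the mir-17-92 cluster, and their loci were followed in the rat retina between postnatal days 1 and 21 (P1 and P21). Loci were taken by name from the miRNA features, as mir-106b, mir-93, mir-25, mir-20b, mir-18b, mir-19b-2, mir-92a-2 and mir-363. This gave 7 of the 571 miRNA features, which belong to a list of 5491 noncoding features. Mir106b, Mir93 and Mir25 formed the mir-106b-25 cluster, and Mir20b, Mir19b2, Mir92a2 and Mir363 belonged to the mir-106a-363 cluster. No feature matched mir-18b. Mir106a of the X-linked cluster was listed but was not taken by these names, and its values are given beside the others.

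Untreated Wistar WU rats kept on a light and dark cycle were sampled at 7 ages from P1 to P21, with P3, P5 and P7 in the first postnatal week and P10 and P15 after it. RNA of 3 retinas per age was pooled, and its small RNA was sequenced on the Ion Torrent platform in what the methods state were 2 rounds, and each age has 1 value. Levels are given as deposited in FPKM, the number of fragments relative to the length of the feature and the mapped fragments of the library. Ratios and shares between loci of different length therefore depend on that length. There is no spread between animals, no test between ages was possible and no trend over age was tested, and every 95% interval below covers counting error only. RNA was measured in whole retinas, where fewer cells of a type and less RNA per cell cannot be told apart.

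A miRNA locus is transcribed as a hairpin, from which Drosha and Dicer cut a mature strand. The mature strand is loaded into Argonaute and pairs with target mRNAs mainly through its seed. Clusters of the mir-17 type are best known for keeping progenitors proliferating and for blocking cell cycle inhibitors and pro-apoptotic genes. The mir-106b-25 loci lie in an intron of Mcm7, a subunit of the helicase that opens DNA for replication, whereas the mir-106a-363 loci lie on the X chromosome. In the rodent retina, progenitors are still dividing in the first postnatal days, and photoreceptors, bipolar cells and Muller glia mature later.

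The mature strands of the members fell into 3 seed groups. They are printed because reads of identical strands cannot be assigned to 1 locus by the mature sequence alone. The sequences are from RefSeq in the GRCr8 build, all 7 loci were matched, and capitals mark bases 2 to 8, the seed. Mir106b, Mir93 and Mir20b share the seed of Mir17 and Mir20a:
Mir106b: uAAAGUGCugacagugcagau
Mir93: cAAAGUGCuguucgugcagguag
Mir20b: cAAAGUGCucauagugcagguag
Mir20a: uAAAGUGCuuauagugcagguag
Mir106a and Mir17: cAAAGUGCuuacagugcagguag
Mir25, Mir363 and Mir92a2 share a different seed:
Mir25: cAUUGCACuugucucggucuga
Mir363: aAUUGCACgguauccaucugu
Mir92a2 and Mir92a1: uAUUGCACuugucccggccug
Mir19b2 carries the seed of the mir-19 strands:
Mir19b2 and Mir19b1: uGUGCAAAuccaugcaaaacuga
Mir19a: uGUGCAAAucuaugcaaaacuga
Mir106b differed from Mir93 by 7 base edits and from Mir20b by 6, and Mir20b differed from Mir20a by 2. Mir25 was 4 edits from Mir92a2 and 7 from Mir363. Mir19b2 and Mir92a2 were identical to strands of the mir-17-92 cluster, and Mir106a was identical to Mir17.

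By the coordinates in the deposited table, in the Rnor_6.0 build, Mir106b lies on the reverse strand at chr12:19307752-19307833, Mir93 at chr12:19307543-19307629 and Mir25 at chr12:19307340-19307423. These 3 loci span 494 bases. Mir20b lies on the reverse strand at chrX:140117518-140117589, Mir19b2 at chrX:140117379-140117474, Mir92a2 at chrX:140117249-140117340 and Mir363 at chrX:140117098-140117184, a span of 492 bases. No host gene was found for the X-linked loci in the RefSeq list, and Mcm7 was found for each locus of mir-106b-25.

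The depth of a library was estimated from the steps between low FPKM values, which at P1 were whole multiples of what 1 alignment is worth. From P3 to P15 they were sums of 2 such steps and at P21 of 3, so the depth after P1 assumes equal signal in each step. On that assumption, between 297968 and 1667247 alignments were estimated per library, with the highest number at P21. Without it the depth could lie anywhere from 127537 to 774885 alignments at P15 and from 200472 to 708076 at P10, and every level per miRNA alignment rests on it. The miRNA features held 39.1% of them at P3, and elsewhere their share lay between 58.0% and 74.2%. The neuronal Mir124 loci and the photoreceptor-associated Mir183 and Mir96 summed to 1137720 FPKM at P1 and 12357800 FPKM at P21. Mir96 was the lowest of them and lay between 14260 FPKM at P1 and 281916 FPKM at P10. The muscle markers Mir206, Mir133b and Mir1b summed to 165251 FPKM at P3 and 100176 FPKM at P5, and to between 4840 and 11665 FPKM at the other 5 ages. Mir204 and Mir211, used as pigment epithelium markers, summed to 87709 FPKM at P1 and 483914 FPKM at P21. Whether their signal came from pigment epithelium was not tested. The erythroid markers Mir144 and Mir451a summed to between 4120 and 16876 FPKM and the white blood cell markers Mir142 and Mir223 to between 1083 and 3396 FPKM. None of these markers was listed at 0, and their part in the levels below was not tested.

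In FPKM as deposited, the summed level of both clusters was highest at P1 and lowest at P21. The summed level of mir-106b-25 was 586744 FPKM at P1, 472287 at P3 and 495025 at P5, then 326985 at P7, 318830 at P10 and 174179 at P15, and finally 141858 at P21. It fell 4.14-fold from P1 to P21 (95% counting interval 3.98 to 4.29). The summed level of mir-106a-363 was 931199 FPKM at P1 and 857045 at P3, then 833760 at P5, 386454 at P7 and 617595 at P10, before 411414 at P15 and 333875 at P21. It fell 2.79-fold (2.72 to 2.86). The X-linked sum dipped at P7 and was higher again at P10, while the mir-106b-25 sum did not rise after P7. With Mir106a added, the X-linked sum fell 2.81-fold. The mir-17-92 cluster, summed over 6 loci, fell from 2751580 to 482726 FPKM, which is 5.70-fold (5.59 to 5.81).

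The level of each of the 7 loci at the 7 ages is plotted, and Mir19b2 and Mir106b held nearly all of the signal.

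**Figure D1:**
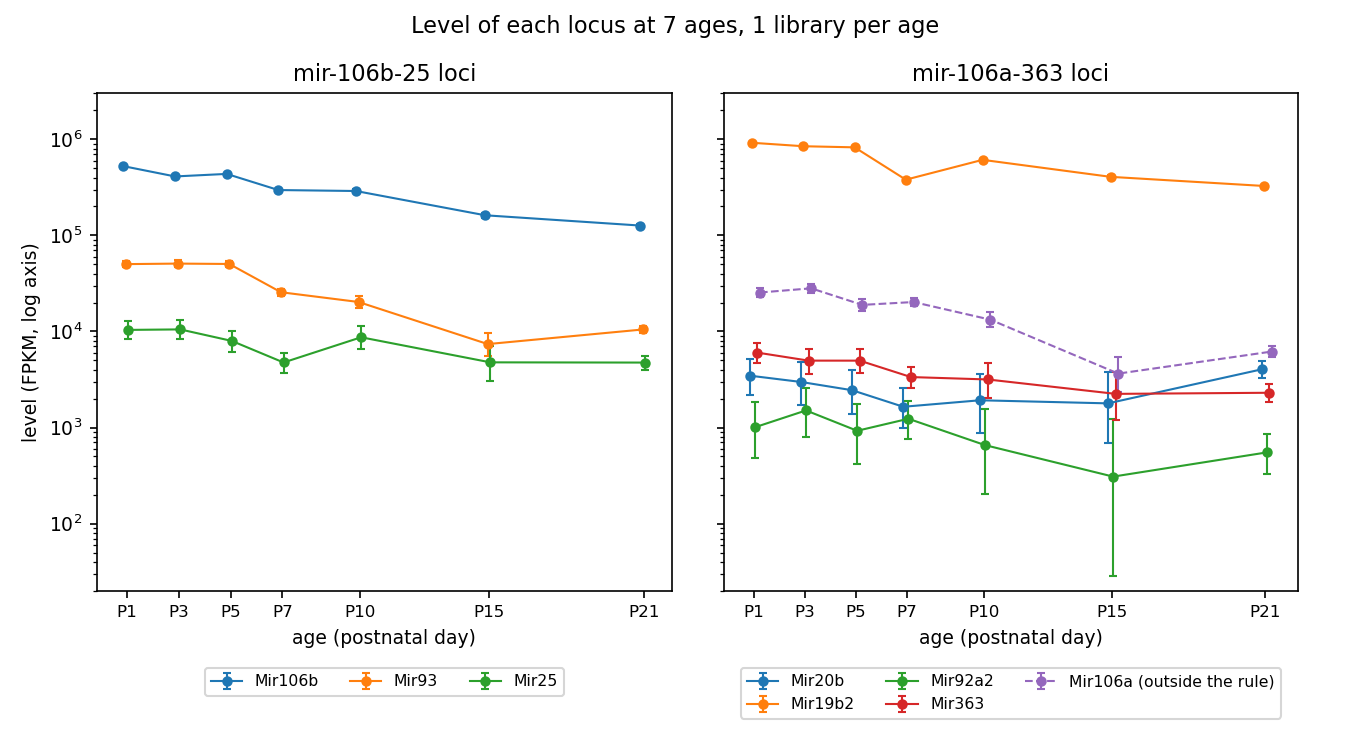
The y axis gives the FPKM level on a log axis and the x axis the age in postnatal days, with 1 point per age and bars for the 95% counting interval. Mir106b fell from 526107 to 126621 FPKM and Mir19b2 from 920699 to 326989 FPKM, while Mir20b stood at 3469 FPKM at P1 and 4033 FPKM at P21.

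Mir106b, the namesake of its cluster, was the 14th most abundant miRNA feature by mean FPKM. Its level was 526107 FPKM at P1, with 410884 at P3, 436625 at P5 and 296609 at P7, followed by 289846 at P10, 162014 at P15 and 126621 by P21. In FPKM as deposited, the level went down mainly between P5 and P7 and between P10 and P15. The log2 difference between P7 and P5 was -0.56 (-0.62 to -0.50) and that between P15 and P10 was -0.84 (-0.95 to -0.73). Between P7 and P10 the difference was -0.033 (-0.11 to 0.040), which lies within the counting error. This flat stretch was not seen under the other scalings, where the P10 against P7 difference was -0.44 scaled to the miRNA total, -0.29 by median-of-ratios, -0.23 by TMM and -0.68 per miRNA alignment. The P7 against P5 difference was then -0.49, -0.17, -0.33 and -0.24 in the same order. From P1 to P21 the level of Mir106b fell 4.15-fold (3.99 to 4.33).

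Mir93, which shares its seed with Mir106b, ranked 72 of 571 by mean FPKM. It stood at 50251 FPKM at P1, 50891 at P3 and 50430 at P5, then 25619 at P7, 20279 at P10 and 7393 at P15, and finally 10490 at P21. The first 3 ages did not differ beyond counting error, and the lowest level was that of P15. The log2 difference was -0.98 (-1.14 to -0.82) from P5 to P7 and -1.46 (-1.90 to -1.03) from P10 to P15. A rise of 0.50 (0.11 to 0.92) followed from P15 to P21. The median of all miRNA features over that step was 0.37. The other scalings raised P15 relative to P21, and so lowered this rise. On the log2 scale the shift was 0.48 for the miRNA total, 0.24 for median-of-ratios, 0.16 for TMM and 0.28 per miRNA alignment. Each shift is larger than the lower bound of 0.11, so the interval then includes 0. From P1 to P21 Mir93 fell 4.79-fold (4.27 to 5.38), and its ratio to Mir106b at P21 was 0.867 of that at P1 (0.768 to 0.979). Mir93 was 0.0955 of the Mir106b level at P1, 0.124 at P3, 0.0456 at P15 and 0.0828 at P21.

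Mir25, of the other seed group, ranked 186. It stood at 10386 FPKM at P1 and 10512 at P3, then 7970 at P5, 4756 at P7 and 8704 at P10, before 4772 at P15 and 4747 at P21. These levels rest on 37 to 96 whole alignments at the ages to P15. In FPKM as deposited, Mir25 was low at P7, P15 and P21 and higher at the other ages. P10 and P5 did not differ beyond counting error, at a log2 difference of 0.13 (-0.41 to 0.66). As alignments in 1000000 miRNA alignments, Mir25 stood at 517 at P1, 287 at P5, 250 at P10 and 118 at P21. Its high level at P10 therefore depended on the scaling. As deposited, Mir25 was 0.87 higher on the log2 scale at P10 than at P7 (0.34 to 1.40), where Mir106b and Mir93 did not rise. From P1 to P21 Mir25 fell 2.19-fold (1.66 to 2.87). The level of Mir25 relative to Mir93 went from 0.207 (0.164 to 0.257) at P1 to 0.646 (0.381 to 1.06) at P15 and 0.452 (0.373 to 0.547) at P21, so the ratio was 2.19-fold higher at P21 (1.64 to 2.92). In estimated alignments the Mir25 to Mir93 ratio was 0.129 at P1 and 0.283 at P21. The 3 loci of mir-106b-25 lie in 1 host gene, and their levels did not fall by equal factors.

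The Mcm7 promoter is printed because the 3 loci lie within this gene. The 150 bases before the RefSeq start are given on the strand of the gene in the GRCr8 build, and capitals mark the searched motifs. The E2F motif was searched as TTTCGCGC or TTTGGCGC and the CCAAT box by its own letters, on both strands, so that a box on the opposite strand reads as its reverse complement:
Mcm7: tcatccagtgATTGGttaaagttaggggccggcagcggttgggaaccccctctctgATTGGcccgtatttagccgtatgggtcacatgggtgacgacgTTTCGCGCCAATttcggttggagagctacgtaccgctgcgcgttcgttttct
TTTCGCGC was found at positions -52 to -45 from the start, and its last base is also the first base of a CCAAT box. Boxes were also found at -140 to -136 and -94 to -90 on the opposite strand, which makes 3 in all. Of 33469 promoters in the table, 265 (0.792%) held either form of the E2F motif and 3.02% held 3 or more CCAAT boxes. E2F factors are known activators of DNA replication genes in dividing cells. The levels of Mcm7 mRNA and of E2F factors were not analysed here.

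Mir19b2, the mir-19 strand of the X-linked cluster, ranked 5 among miRNA features by mean FPKM and 9 by mean estimated alignments. It stood at 920699 FPKM at P1, with 847581 at P3, 825417 at P5 and 380220 at P7, followed by 611850 at P10, 407078 at P15 and 326989 by P21. In FPKM as deposited, levels were high from P1 to P5, with P7 and P21 lowest. As alignments in 1000000 miRNA alignments, Mir19b2 stood at 22490 at P7, 16164 at P15 and 10702 at P21, so P15 and P21 were lowest. The log2 difference as deposited was -1.12 (-1.16 to -1.07) from P5 to P7, 0.69 (0.63 to 0.74) from P7 to P10 and -0.59 (-0.66 to -0.52) from P10 to P15. From P5 to P7 it was -1.05 scaled to the miRNA total, -0.73 by median-of-ratios, -0.89 by TMM and -0.80 per miRNA alignment. From P10 to P15 it was -0.35, -0.34, -0.33 and -0.52 in the same order. From P1 to P21 Mir19b2 fell 2.82-fold (2.74 to 2.89).

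The mature strand of Mir19b2 is identical to that of Mir19b1 in the mir-17-92 cluster. The FPKM ratio of Mir19b2 to Mir19b1 was 1.30 at P1, 1.25 at P3 and 1.26 at P5, then 1.30 at P7, 1.24 at P10 and 1.28 at P15, and finally 1.25 at P21. In estimated alignments the ratio was between 0.977 and 1.02. The alignments at both loci were about equal in each library. The split of mir-19b reads between the 2 clusters is uncertain, and the X-linked sum rests on Mir19b2. Without Mir19b2 the X-linked loci summed to 10500 FPKM at P1 and 6886 FPKM at P21, a fall of 1.52-fold (1.17 to 1.97). The mir-106b-25 sum contains no strand shared with another listed locus.

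Mir363, at the far end of the X-linked cluster, stood at 6025 FPKM at P1 and 4973 at P3, then 4971 at P5, 3354 at P7 and 3166 at P10, before 2242 at P15 and 2302 at P21. It went down with age and did not dip at P7 alone. It fell 2.62-fold (1.86 to 3.66) from P1 to P21, on 65 alignments at P1 and 83.9 estimated alignments at P21. No neighbouring step from P7 onward exceeded its counting interval.

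Mir20b, which has the seed of Mir106b, stood at 3469 FPKM at P1, with 2983 at P3, 2447 at P5 and 1645 at P7, followed by 1923 at P10, 1785 at P15 and 4033 by P21. Its highest level was at P21 and its lowest at P7. From P1 to P21 the log2 difference was 0.22 (-0.46 to 0.95), within counting error, on 23 and 90.3 alignments. Between P15 and P21 Mir20b rose 1.18 (0.040 to 2.58) on the log2 scale. The median of all miRNA features over that step was 0.37. Each of the other scalings lowered this rise by 0.16 to 0.48, more than the lower bound of 0.040, so the interval then includes 0. The P21 against P1 difference depended on the scaling in its direction, at 0.29 by median-of-ratios and 0.36 by TMM. It was -0.41 (-1.08 to 0.32) scaled to the miRNA total and -0.78 (-1.46 to -0.055) per miRNA alignment. It was -0.26 with P15 and P21 against P1 and P3. Relative to Mir363 of the same cluster, Mir20b was 0.576 (0.342 to 0.939) at P1 and 1.75 (1.29 to 2.39) at P21, a ratio 3.04-fold higher (1.74 to 5.33) whatever the scaling between libraries. Mir106a, the next locus, stood at 25448 FPKM at P1 and 6182 FPKM at P21 and fell 4.12-fold (3.48 to 4.87). Mir106a was 7.34 times the Mir20b level at P1 and 1.53 times at P21. In estimated alignments these ratios were 13.9 and 2.91, and Mir20b to Mir363 was 0.354 at P1 and 1.08 at P21.

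Mir92a2 was the lowest of the 7 and ranked 434. It stood at 1006 FPKM at P1, 1507 at P3 and 925 at P5, then 1235 at P7, 656 at P10 and 309 at P15, and finally 551 at P21, on 6 to 19 whole alignments at the ages to P15. P3 and P7 were high and P15 was low, but no neighbouring ages differed beyond counting error. The P21 against P1 log2 difference was -0.87 (-2.05 to 0.41). Its mature strand is identical to that of Mir92a1, yet Mir92a2 was 0.0242 of the Mir92a1 level at P1, 0.235 at P7 and 0.0833 at P21. Mir92a1 stood at 41650 FPKM at P1 and 5244 FPKM at P7. In the same way Mir106a was between 0.434 and 0.683 of the level of Mir17, with which it shares a strand.

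**Figure D2:**
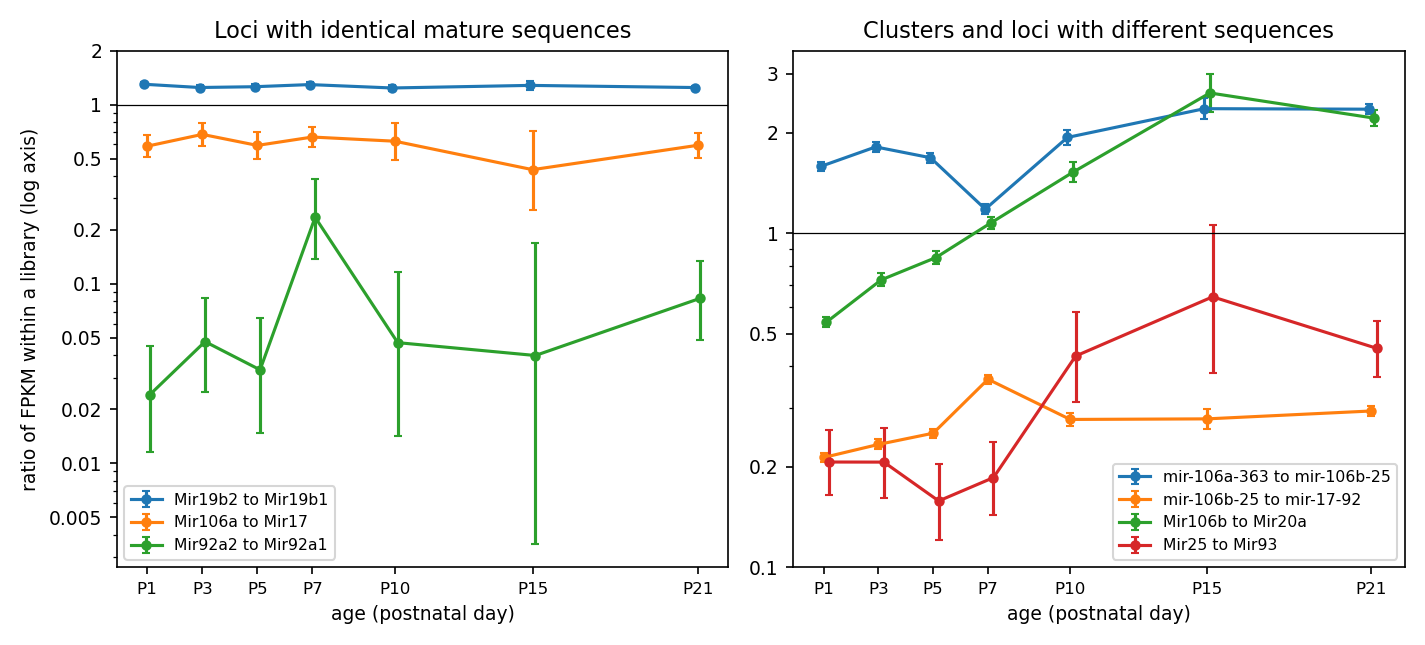
Ratios of FPKM within a library are shown on a log axis against age in postnatal days, with bars for the 95% counting interval. On the left, loci with identical strands stood at a ratio of 1.24 to 1.30 for Mir19b2 to Mir19b1, while on the right Mir106b to Mir20a went from 0.542 at P1 to 2.21 at P21.

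The 7 loci were set against all miRNA features. At P21, 5 of the 7 members were at least 2-fold lower than at P1 (Mir106b, Mir93, Mir25, Mir19b2 and Mir363), and so were 32.9% of all 571 miRNA features. No member was at least 2-fold higher, as against 31.5% of all features. With features of at least 20 mean alignments, 5 of 6 members and 29.0% of 352 features were 2-fold lower. The median log2 difference was -1.39 for the members and -0.049 for all features. Counted from the lowest value, Mir93 was at rank 97 of 571, Mir106b at 114, Mir19b2 at 151, Mir363 at 161, Mir25 at 175, Mir92a2 at 203 and Mir20b at 314. Mir20a and Mir18a of mir-17-92 stood lower than every member, at ranks 20 and 22.

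The scaling between libraries moved all miRNA features together. The median of all features at P21 against P1 was -0.049 as deposited, -0.67 when scaled to the miRNA total, 0.028 by median-of-ratios, 0.092 by TMM and -1.05 per miRNA alignment. In the same order, 32.9%, 43.6%, 31.2%, 30.5% and 50.4% of all 571 features were at least 2-fold lower, and so were 5, 6, 5, 4 and 6 of the 7 members. Of the features that were at least 2-fold lower or higher, 51.1%, 64.8%, 48.6%, 47.2% and 73.3% were lower. Relative to the median of all features, Mir93 stood at -2.21, Mir106b at -2.01, Mir19b2 at -1.44, Mir363 at -1.34, Mir25 at -1.08, Mir92a2 at -0.82 and Mir20b at 0.27.

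**Figure D3:**
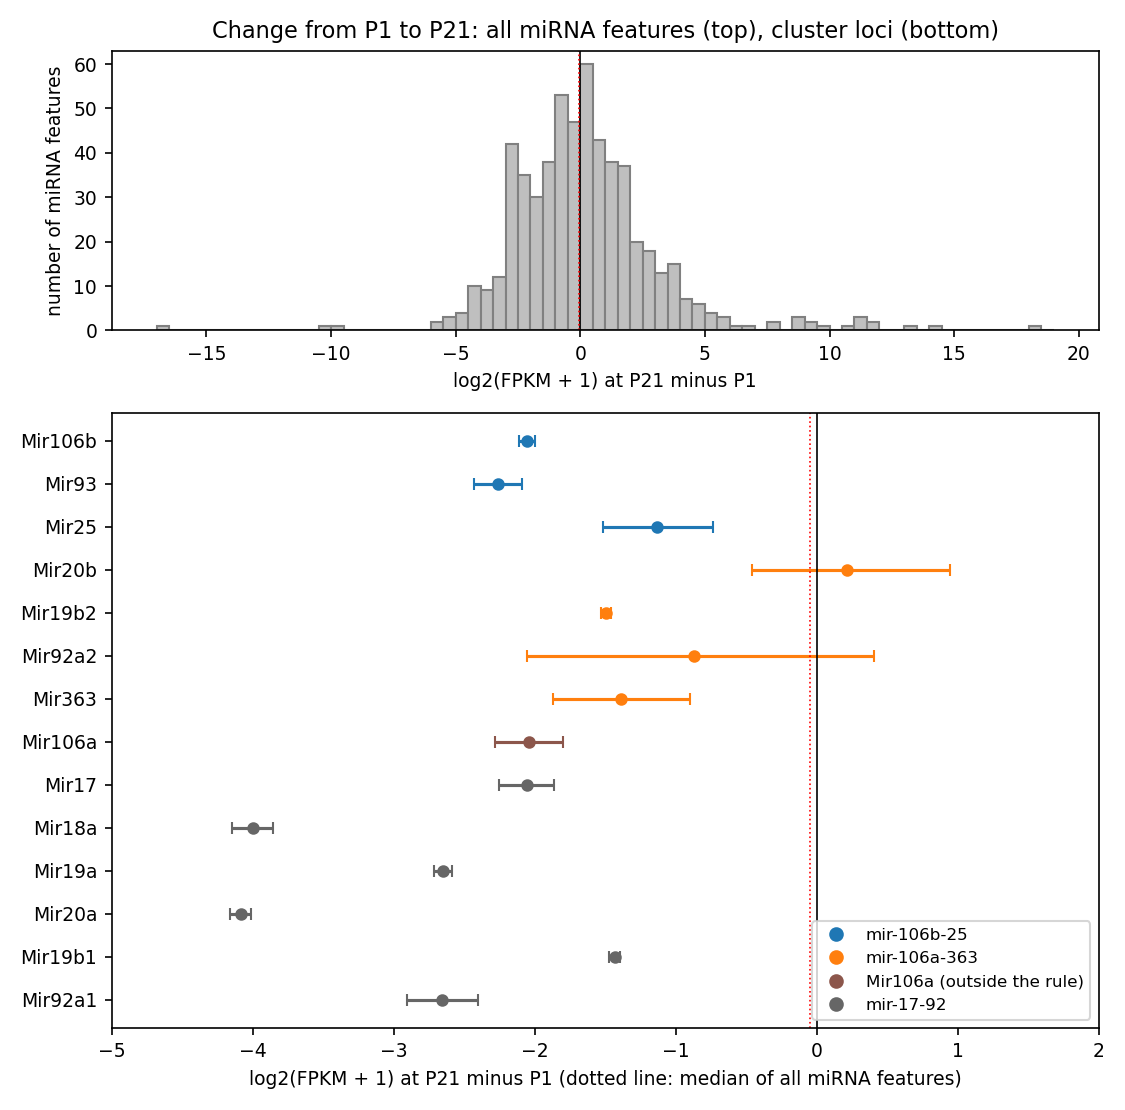
The upper panel counts all 571 miRNA features by log2(FPKM + 1) at P21 minus P1 in bins of 0.5, and the lower panel gives the loci with 95% counting intervals, with a dotted line at the median of all features. Mir93 stood at -2.26, Mir106b at -2.05 and Mir20b at 0.22, while Mir20a and Mir18a of mir-17-92 stood at -4.08 and -4.00.

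The steps between neighbouring ages were read in the same way, with 1.5-fold as the mark. The median log2 difference of all features was -0.21 from P5 to P7, 0.088 from P7 to P10 and -0.27 from P10 to P15. From P15 to P21 it was 0.37. Between P5 and P7, 3 members (Mir93, Mir25 and Mir19b2) and 29.4% of all features were at least 1.5-fold lower. Between P7 and P10, 2 members (Mir25 and Mir19b2) and 37.7% of features were at least 1.5-fold higher. Between P10 and P15, 5 members and 37.8% of features were at least 1.5-fold lower. As alignments in 1000000 miRNA alignments, Mir19b2 stood at 22490 at P7 and 23176 at P10, Mir25 at 214 and 250, and Mir106b at 15368 and 9617. The size of the P7 to P10 rise depended on the scaling between libraries. For Mir19b2 the log2 difference was 0.69 as deposited, 0.28 scaled to the miRNA total, 0.43 by median-of-ratios, 0.49 by TMM and 0.043 (-0.0083 to 0.095) per miRNA alignment. For Mir25 it was 0.87, 0.46 (-0.070 to 0.99), 0.62, 0.67 and 0.23 (-0.31 to 0.76) in the same order. The highest of the 7 levels was that of P1 or P3 in 6 of the 7 members and in 30.6% of all features, with Mir20b as the member that was highest at P21. At P3 and P5, 0 of the 7 members were at least 2-fold below P1, beside 19.8% and 17.2% of all features. At P7 and then P10, 3 members and 1 member were, beside 28.2% and 26.3% of features, and at P15 the count was 6 members beside 37.0% of features.

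The summed levels of the clusters did not fall by equal factors. The ratio of the mir-106a-363 sum to the mir-106b-25 sum was 1.59 at P1 and 1.81 at P3, then 1.68 at P5, 1.18 at P7 and 1.94 at P10, before 2.36 at P15 and 2.35 at P21. It was lowest at P7 and was 1.48-fold higher at P21 than at P1 (1.42 to 1.55). The ratio of mir-106b-25 to mir-17-92 was 0.213 at P1, 0.366 at P7 and 0.294 at P21, 1.38-fold higher at P21 than at P1 (1.32 to 1.44). The ratio of mir-106a-363 to mir-17-92 was 0.338 at P1 and 0.692 at P21. Both ratios of the mir-106a-363 sum rest on Mir19b2, and the mir-17-92 sum contains Mir19b1 of the same strand. The split of mir-19b reads between these loci is uncertain, so the shares of the clusters are uncertain as well.

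Mir106b and Mir20a are 5 base edits apart and share a seed. Their ratio was 0.542 at P1, with 0.726 at P3, 0.846 at P5 and 1.07 at P7, followed by 1.52 at P10, 2.63 at P15 and 2.21 by P21. Mir20a was above Mir106b to P5, and Mir106b was above Mir20a from P7 on. The ratio was 4.08-fold higher at P21 than at P1 (3.83 to 4.35).

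The make-up of each seed family moved with it. The mir-17 seed family (Mir106b, Mir93, Mir20b, Mir106a, Mir17 and Mir20a) fell from 1619180 to 214963 FPKM, 7.53-fold. Mir106b held 32.5% of it at P1, 37.3% at P3 and 41.3% at P5, then 45.6% at P7, 54.0% at P10 and 66.2% at P15, and finally 58.9% at P21. Mir20a held 59.9% at P1 and 26.6% at P21. With Mir93, the mir-106b-25 cluster held 35.6% of this family at P1 and 63.8% at P21. Mir20b held 0.214% at P1 and 1.88% at P21.

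The mir-25 seed family (Mir25, Mir363, Mir92a2, Mir92a1, Mir92b and Mir32) fell 4.81-fold. Mir25 held 11.7% (9.58 to 14.2) of it at P1 and 25.8% (22.2 to 29.7) at P21. Mir363 and Mir92a2 together held 7.95% at P1, 21.5% at P7 and 15.5% at P21. Mir32, which is in neither cluster, reached 28179 FPKM at P10 and then held 47.7% of the family. The mir-19 seed family (Mir19b2, Mir19b1 and Mir19a) fell 3.43-fold, and Mir19b2 held 36.8% at P1 and 44.9% at P21. Mir19b1, of the same strand, went from 28.3% to 36.0% and Mir19a from 34.9% to 19.1%. The split of mir-19b reads between Mir19b2 and Mir19b1 is uncertain.

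**Figure D4:**
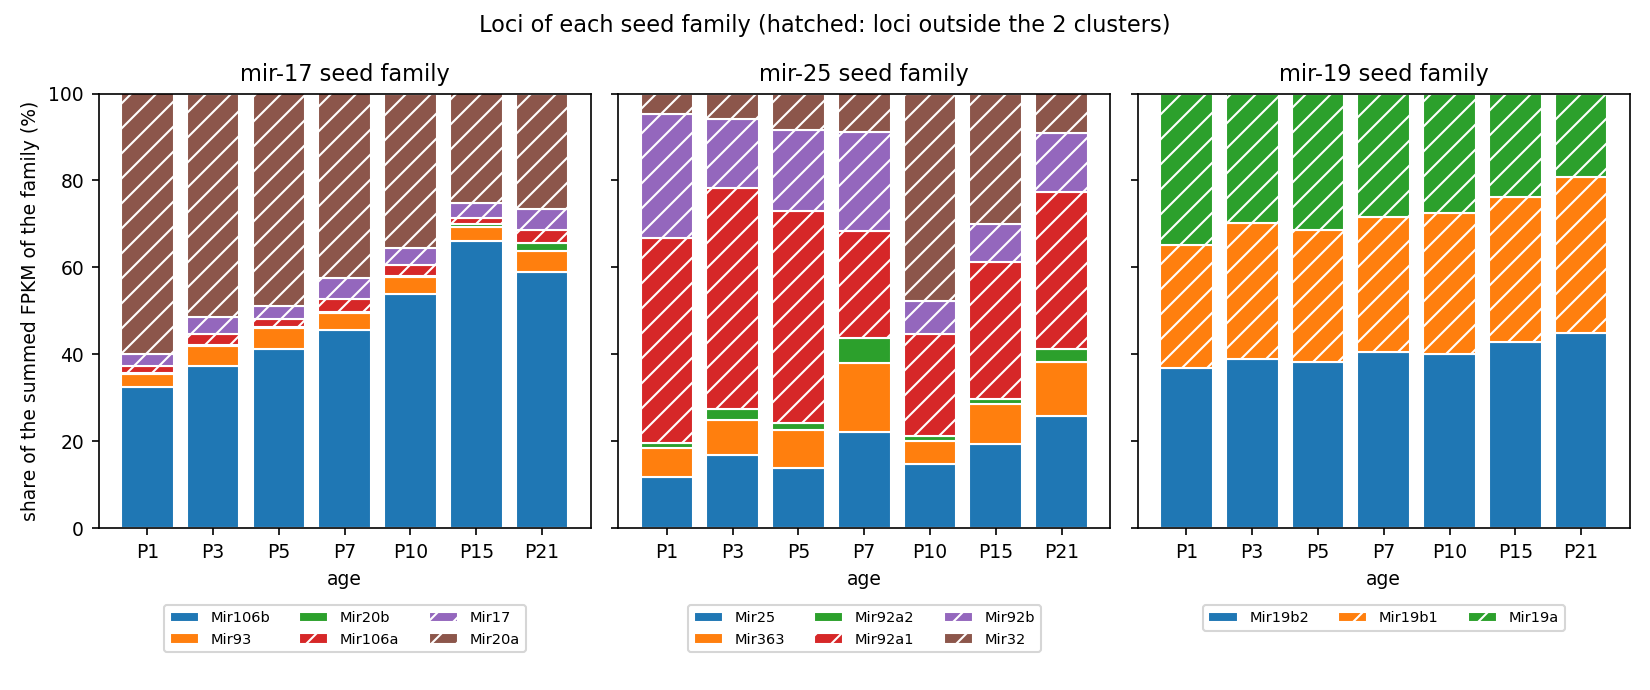
Bars give the share of each locus in the summed FPKM of its seed family, in percent, at the 7 ages, with hatching for loci outside the 2 clusters. Mir106b went from 32.5% to 58.9% of the mir-17 seed family between P1 and P21, and Mir25 from 11.7% to 25.8% of the mir-25 seed family.

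The miRNA features with the profile most like each cluster were found among 346 features with at least 20 mean alignments, by the root mean square difference of log2 profiles over the 7 ages after centring. For mir-106b-25 they were Mir130b (0.134), Mir296 (0.190), Mir322 (0.229), rno-mir-322-1 (0.230) and Mir17 (0.292). Mir130b fell from 16962 FPKM at P1 to 4451 FPKM at P21. For mir-106a-363 they were Mir19b1 (0.0266), Mir322 (0.174), Mir3559 (0.181), Mir296 (0.226) and Mir1193 (0.229). Mir19b1 carries the strand of Mir19b2 and was the closest of all. The mir-106a-363 sum rests on Mir19b2, so this list describes the Mir19b2 profile. The closeness of Mir19b1 is no separate result, since the split of mir-19b reads is uncertain. Mir20a stood at 0.765 from the mir-106b-25 profile, rank 98, and at 1.01 from the mir-106a-363 profile. Among the members, Mir19b2 and Mir25 had the most similar profiles (0.187) and Mir20b and Mir93 the least similar (1.05).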

How the data were processed

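Small RNA of pooled retinas was measured at 7 ages. The authors made the files with Cufflinks and Cuffdiff 2.2.1.3 (submitters' processing notes) on Rnor_6.0, and they deposited FPKM values with fold changes, p-values and q-values for 21 pairs of ages. Only the FPKM values were used. The aligner options and the treatment of reads that map to several loci are not given in the sources used here.

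What 1 alignment is worth was fitted at P1 for 478 of 724 feature lengths and interpolated for the rest, and values within 0.05 alignments of a whole number were called whole. Low values of P3 to P15 were sums of 2 steps and those of P21 of 3 steps, which were not assigned to sequencing rounds. Estimates after P1 assume equal signal per step. Level intervals are exact Poisson and ratio intervals Clopper-Pearson based, and the interval of a change of ratio adds log variances. PCR copies are not independent molecules. Units, steps and intervals were tested on simulated data before use. The simulation gave each step equal expected signal, so it could not test that assumption.

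No test between 2 ages was possible with 1 value per age from 1 pool of retinas, and no trend over age was tested. Differences are log2(FPKM + 1) with a pseudocount of 1, which understates the change of low features. Members, comparison loci, markers, motifs and lists were chosen with earlier results of these data known. The miRNAs with the most similar profile were the 5 with the smallest distance, members left out. Mir-9 is not reported here. Alternatives were other scalings (TMM trimmed 30% of ratios and 5% of levels), pseudocounts of 0.1 and 10, filters, other summaries and ages left out; adding Mir106a and rescaling the steps between ages were chosen after seeing the data. Sequences and promoters, from 250 bases before to 50 after the start, were from RefSeq (GRCr8). Scripts ran in Python 3.11.15 (pandas 2.3.3, numpy 2.4.6, scipy 1.17.1) and figures were drawn with matplotlib 3.10.9.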

Additional observations from a re-analysis of the deposited data

How the results depend on the processing

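Of 159 alternative log2 values, 92 lay within the counting interval of the reported value and 67 outside it. None of those whose reported interval excluded 0 changed sign, and Mir20b, whose interval included 0, did. All 18 alternative counts of members were within 1.5 times the reported count, and 5 of 44 ages of the highest or lowest level moved. The P21 against P1 log2 difference of the mir-106b-25 sum, -2.05 as reported, was -2.67 when scaled to the miRNA total, -1.97 by median-of-ratios, -1.91 by TMM and -3.05 per miRNA alignment. It was -1.74 with P15 and P21 against P1 and P3, -1.81 as the mean over loci and -1.99 without Mir106b. For the mir-106a-363 sum, -1.48 as reported, the scalings gave -2.10, -1.40, -1.34 and -2.48 in the same order, P15 and P21 against P1 and P3 gave -1.27, and the mean over loci gave -0.88. Without Mir19b2 it was -0.61, and without Mir19b2 and Mir92a2 it was -0.58, so its size rests on Mir19b2.

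The log2 change of the ratio of mir-106a-363 to mir-106b-25, 0.57 as reported, was 0.93 as a mean over loci, 1.38 without the top locus of each cluster and 1.46 without Mir19b2 and Mir92a2. That of mir-106b-25 to mir-17-92, 0.46, was 1.00 as a mean over loci and 1.22 without the top loci. The highest mir-106b-25 level moved from day 1 to day 5 without P1, and its lowest from day 21 to day 15 without P21. The highest mir-106a-363 level moved to day 3 when scaled to the miRNA total and without P1, and its lowest to day 7 without P21. Moves without an age follow from leaving that library out, and the cause of the others was not tested. No paired analysis was possible because each age has 1 value. At the depth of Mir92a2, the interval of the P15 against P7 log2 difference ran from -5.53 to 0.17.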

Other observations

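At P3 to P15 the level of a low locus was split between the smaller and the larger step of its library. The smaller step gave 36.3% of the Mir25 level, 31.7% of the Mir363 level, 48.2% of the Mir20b level and 19.5% of the Mir92a2 level at P7. At P5 it gave 74.2% of Mir25, 68.6% of Mir363, 65.4% of Mir20b and all 13 alignments of Mir92a2. The steps were not assigned to sequencing rounds. Mir291b, which shares the core of the mir-17 seed, stood between 876 and 1955 FPKM.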
